A study of Bombus terrestris with 25 samples.

Results

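Elongases of very long chain fatty acids are membrane enzymes of the endoplasmic reticulum that add carbon units to fatty acids. The 7 elongase genes described here were measured in Bombus terrestris, the buff-tailed bumble bee, in queens at 5 stages between mating and colony founding. They were taken from the count table by a list of gene identifiers, and their counts were summed per gene. The list was drawn up with earlier results of these data known. They are 7 of 3861 genes in the table and 7 of the 11 genes that the table names as elongases. All 7 passed the filter on low counts.

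RNA with a polyA tail was sequenced from abdomens without their viscera but with the fat body, 1 queen per library and 5 queens per group. Founders post diapause were egg-laying queens of 4 months, sampled a month after the cold with a colony under way. Diapausing queens were sampled at the end of 9 to 10 weeks at 4 °C, at 3 months of age by the sample labels and 2.5 months by the text of the series. Founders post CO2 were egg-laying queens of 1.5 months, a month after anaesthesia. CO2-treated queens were sampled 24 h after treatment with pure CO2, which anaesthetised them once and again a day later. Breeders use CO2 to make queens lay without diapause. Mated queens had no treatment and, like CO2-treated queens, were 5 to 10 days old. All queens of all groups were mated, and they came from 6 genetic lines. Age and housing changed together with the group in each comparison except CO2-treated against mated queens, and cannot be told apart from it there.

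Elongation runs in a cycle. The elongase joins a fatty acyl-CoA with malonyl-CoA, a reductase and a dehydratase work on the product, and an enoyl-CoA reductase closes the round. In insects the very long chains feed the hydrocarbons of the cuticle, made in oenocytes, cells that lie close to the fat body and epidermis. They also enter waxes, sphingolipids and storage lipids. The queens' abdominal tissue holds several of these cell types, so that fewer cells of a type and less RNA per cell cannot be told apart.

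The product names place the genes in 3 kinds. LOC100652206 and LOC100642650 are named after AAEL008004, an elongase of the mosquito Aedes aegypti. LOC100643858 is named for elongase protein 4, which in mammals makes the longest chains of retina and skin. LOC100647204, LOC100643669, LOC100646637 and LOC100649395 are named for elongase protein 6, which in mammals extends palmitate to stearate. Which chains the bee enzymes make was not measured.

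Coordinates are those of the count table, on scaffolds of a genome build that the labels and the table do not name. On scaffold 12.1 the counted intervals of LOC100652206 ran from 18521 to 27292 and those of LOC100643858 from 38405 to 43112. These are neighbours, 11112 bases apart with 0 other genes of the table between them. LOC100642650 lay on the same scaffold at 183534 to 215367. On scaffold 16.3 lay LOC100649395, from 1548866 to 1553157, LOC100646637, from 2143373 to 2170107, and LOC100643669, from 2760117 to 2771810. The gaps between these 3 genes were 590215 and 590009 bases, with 29 and 9 genes of the table between them. Elongases outside the list lay on these scaffolds too, LOC100649601 and LOC100649787 on scaffold 16.3 and LOC100648720 on scaffold 12.1. LOC100647204 lay on scaffold 17.2 at 3079073 to 3081610. Strand, exons and untranslated regions of the intervals were not annotated in the table. The counting of reads that match several elongases is not described in the labels, so reads of similar copies could have been split between genes.

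The table held counts for part of the transcriptome, and totals ran from 534806 to 4057781 per library. CO2-treated replicate 3 had 534806 and mated replicate 2 had 586405, and the other 23 libraries had at least 2432559. Those 2 libraries, of different groups and genetic lines, were closer to each other than any pair of libraries within a group. At equal depth the chi-square of their counts per degree of freedom was 2.40, and the next pair, diapause replicates 2 and 3, stood at 5.49, where 1 is sampling noise alone. Both were highest of their group in LOC100642650 and LOC100647204. Diapause replicate 1 stood apart from the other 4 diapausing queens and was closest to CO2-treated replicates 5 and 4, at 10.3 and 11.7. The comparisons below use all 25 libraries, and the values without these 3 libraries stand beside the calls that they change.

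Levels are CPM, the counts of a gene set against the total of its library in the table, with TMM factors that level out differences in composition. Per kilobase of counted interval, 4 of the elongases were high and 3 were low. Averaged over the 25 queens, LOC100643858 had 766 CPM per kb, LOC100652206 had 490.2, LOC100642650 had 236 and LOC100646637 had 178. LOC100643669 had 13.9 CPM per kb, LOC100649395 had 12.1 and LOC100647204 had 11.9. The counts behind the 3 low genes ran from 6 to 752 per library, against 440 to 28786 behind the 4 high ones. The 7 genes together made up 11190 ± 4593 CPM in founders post diapause, 5955 ± 1006 in diapause, 12400 ± 5506 in founders post CO2, 9721 ± 5421 in CO2-treated queens and 11220 ± 4707 in mated queens (SD, n = 5 each).

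**Figure D1:**
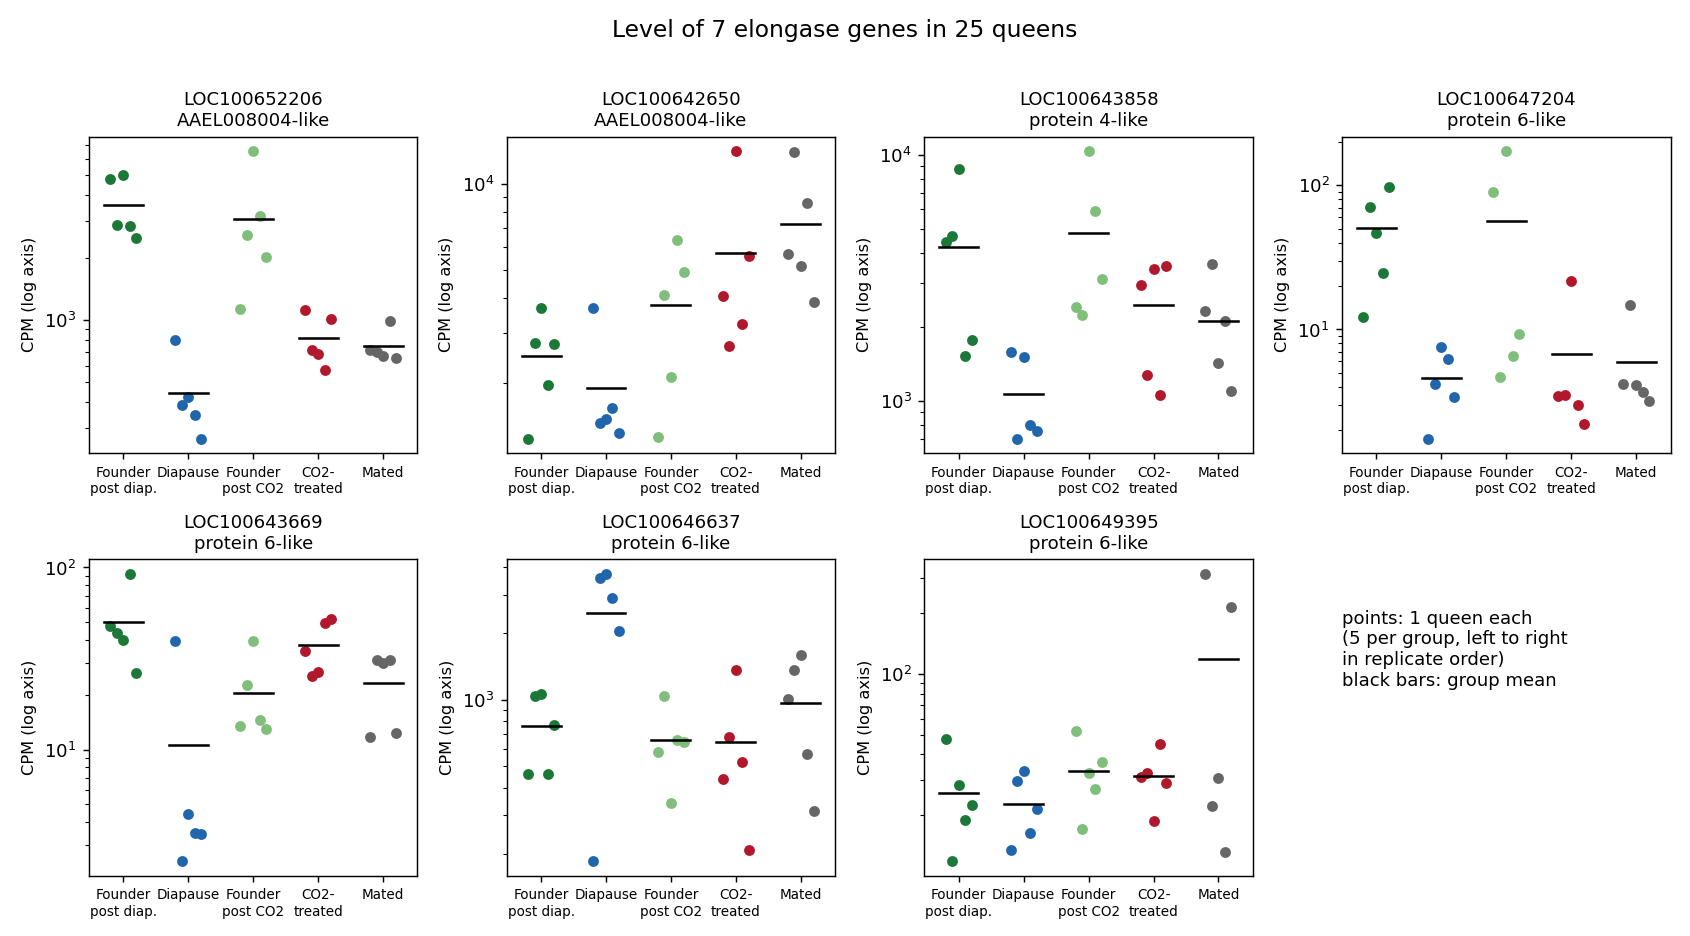
Level of each of the 7 elongases in 25 queens, in CPM on a log axis, with 1 panel per gene. Points are queens, 5 per group from left to right in replicate order, and black bars are group means. LOC100652206 lies between 2491 and 4997 CPM in founders post diapause and between 266.5 and 799.7 CPM in diapause, and LOC100646637 lies at or above 2055 CPM in 4 of 5 diapausing queens.

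Each elongase differed among the 5 groups in an F test in edgeR, with adjusted p between 1.96e-06 for LOC100652206 and 0.0174 for LOC100643669. In the same test 79.0% of all genes passed an adjusted p of 0.05. The p-values here come from edgeR's quasi-likelihood test, adjusted by Benjamini-Hochberg over the 3793 genes tested, and a gene was called when its adjusted p was under 0.05. They set the differences between groups against the spread between queens within groups. Log2 fold changes are given with their standard error (SE) and 5 queens a group.

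Founders post diapause had more RNA of 4 elongases than diapausing queens and less of 1. LOC100652206, LOC100647204, LOC100643669 and LOC100643858 rose, by 1.99 to 3.45 on the log2 scale, and LOC100646637 fell by 1.71. That is 5 of 7 elongases called, where 80.9% of all genes tested were called, 40.2% higher and 40.6% lower, so the share called is near that of all genes. The median log2 fold change was 1.99 over the elongases and 0.28 over all genes tested.

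LOC100652206, the mosquito-like elongase, had 4768, 2871, 4997, 2826 and 2491 CPM in the 5 founders post diapause, against 799.7, 389, 423.5, 346.5 and 266.5 CPM in diapausing queens. The lowest founder was above the highest diapausing queen, and the fold change was 3.01 ± 0.42 (edgeR adjusted p = 9.63e-06). Founders post CO2 had 1124, 2559, 6542, 3164 and 2012 CPM, against 1113, 714.5, 687, 572 and 1004 CPM in CO2-treated queens. These ranges did not overlap either, though the lowest founder and the highest CO2-treated queen differed by little, and the fold change was 1.91 ± 0.40 (edgeR adjusted p = 0.00203). Mated queens had 716, 702, 671.5, 990.2 and 653 CPM, below every founder of both kinds. The fold change over mated queens was 2.27 ± 0.41 in founders post diapause (edgeR adjusted p = 0.000190) and 2.04 ± 0.40 in founders post CO2 (edgeR adjusted p = 0.000644). Groups that do not overlap were found for 48.7% of all genes between founders post diapause and diapause, and for 16% between founders post CO2 and CO2-treated queens. Against mated queens the shares were 43.6% for founders post diapause and 17.6% for founders post CO2.

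LOC100643858, the protein 4-like elongase next to it on the scaffold, rose in founders post diapause as well. They had 4429, 4655, 8787, 1519 and 1774 CPM, against 1582, 701.5, 1507, 798.5 and 752 CPM in diapausing queens. Founder replicate 4 lay below diapause replicate 1, so the ranges overlapped, with a fold change of 1.99 ± 0.54 (edgeR adjusted p = 0.00219). Founders post CO2 had 2394, 2231, 10350, 5911 and 3117 CPM, against 2963, 1273, 3436, 1051 and 3539 CPM in CO2-treated queens. That difference, 0.97 ± 0.52, did not pass the test (edgeR adjusted p = 0.145). Mated queens had 2309, 3590, 1424, 2108 and 1096 CPM. Over them, the fold change was 1.01 ± 0.52 in founders post diapause and 1.19 ± 0.52 in founders post CO2, with edgeR adjusted p of 0.0891 and 0.0699 in that order. DESeq2 called both, and without founder post CO2 replicate 2 edgeR called the second, at 1.37 with an adjusted p of 0.0449.

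LOC100642650, the other mosquito-like elongase, was lower in founders post diapause than in mated queens. Founders post diapause had 1279, 2763, 3667, 1966 and 2747 CPM and diapausing queens 3669, 1456, 1496, 1632 and 1338 CPM. Founders post CO2 had 1296, 4095, 2101, 6373 and 4904 CPM and CO2-treated queens 4058, 2710, 13070, 3220 and 5592 CPM. In mated queens it had 5702, 12920, 5179, 8593 and 3848 CPM, all above every founder post diapause and every diapausing queen. Against mated queens, groups did not overlap for 43.6% of all genes in founders post diapause and for 3.03% in diapause. The fold change of founders post diapause over mated queens was -1.54 ± 0.50 (edgeR adjusted p = 0.0109). Against the stage just before, it was 0.37 ± 0.49 in founders post diapause and -0.61 ± 0.49 in founders post CO2, neither called (edgeR adjusted p = 0.475 and 0.322). Without the 2 shallow libraries CO2-treated queens averaged 3895 ± 1261 CPM (SD, n = 4), and founders post CO2 differed from them by 0.0036 ± 0.47.

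Of the protein 6-like elongases, LOC100647204 had the largest fold changes of the 7 genes and the lowest counts. Founders post diapause had 12.2, 70.2, 47.0, 24.7 and 97.9 CPM, against 1.75, 4.17, 7.61, 6.20 and 3.42 CPM in diapausing queens. All 5 founders were above all diapausing queens, with a fold change of 3.45 ± 0.88 (edgeR adjusted p = 0.00140). These groups did not overlap for 48.7% of all genes. Founders post CO2 split, with 90.3 and 173 CPM in replicates 1 and 3 and 4.64, 6.57 and 9.30 CPM in replicates 2, 4 and 5. CO2-treated queens had 3.45, 3.485, 21.9, 2.98 and 2.22 CPM and mated queens 4.17, 14.7, 4.10, 3.69 and 3.17 CPM. With all libraries 3 of 5 founders post CO2 lay within the range of the queens before them. That overlap came from the 2 shallow libraries, at 21.9 and 14.7 CPM. Without them CO2-treated queens reached 3.485 CPM and mated queens 4.17 CPM, and the lowest founder post CO2 had 4.64 CPM. The fold change of founders post CO2 was 3.37 ± 0.91 over CO2-treated queens (edgeR adjusted p = 0.0109) and 3.42 ± 0.90 over mated queens (edgeR adjusted p = 0.00638). Without founder post CO2 replicate 3 the first was 2.32 with an adjusted p of 0.0548, where the adjusted p over all alternatives ran from 0.000731 to 0.0680. Without that queen the second was 2.36 and still called. Without the 2 shallow libraries the first was 4.11. With genetic line as a block the 2 adjusted p were 0.0502 and 0.0506. Founders post diapause stood 3.26 ± 0.90 above mated queens (edgeR adjusted p = 0.00431).

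LOC100643669 rose after diapause. It had 47.9, 43.7, 40.2, 92.3 and 26.3 CPM in founders post diapause, against 39.3, 2.43, 4.403, 3.49 and 3.42 CPM in diapausing queens, with a fold change of 2.22 ± 0.61 (edgeR adjusted p = 0.00252). Of the diapausing queens only replicate 1 fell in the range of the founders, and the other 4 diapausing queens averaged 3.44 ± 0.81 CPM (SD, n = 4). Without diapause replicate 1 the fold change was 3.88, with an adjusted p of 1.1e-06, and over all alternatives the adjusted p ran from 1.1e-06 to 0.0206. Founders post CO2 had 13.5, 22.6, 39.2, 14.55 and 12.96 CPM, CO2-treated queens 34.8, 25.4, 26.55, 49.6 and 51.9 CPM, and mated queens 11.7, 30.9, 29.9, 31.2 and 12.4 CPM. The ranges of these 3 groups overlapped, and the fold change of founders post CO2 over CO2-treated queens was -0.88 ± 0.59 (edgeR adjusted p = 0.232).

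LOC100646637 went the other way, with its highest level in diapause. Founders post diapause had 459.6, 1038, 1063, 463 and 769 CPM, against 185, 3562, 3724, 2901 and 2055 CPM in diapausing queens. Replicates 2 to 5 of the diapausing queens were above all 5 founders and replicate 1 was below them, and the fold change was -1.71 ± 0.58 (edgeR adjusted p = 0.0102). Founders post CO2 had 581, 1046, 340.3, 660.2 and 647 CPM, CO2-treated queens 439.9, 677.5, 1371, 525 and 209 CPM, and mated queens 1004, 1363, 1602, 566 and 313 CPM. Those 3 groups overlapped throughout, and the fold change of founders post CO2 over CO2-treated queens was 0.03 ± 0.56 (edgeR adjusted p = 0.972).

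LOC100649395 was low in all groups, apart from a pair of mated queens. It had 47.5, 11.8, 28.25, 18.9 and 22.5 CPM in founders post diapause and 13.4, 29.5, 33.2, 16.3 and 21.4 CPM in diapause. It had 52.1, 17.02, 32.4, 27.0 and 36.6 CPM in founders post CO2 and 30.75, 32.4, 18.7, 45.15 and 28.9 CPM in CO2-treated queens. In mated queens replicates 1 and 5 had 314 and 216 CPM, and replicates 2, 3 and 4 had 22.1, 30.45 and 13.1 CPM, within the range of the other groups. Over mated queens the fold change was -2.22 ± 0.62 in founders post diapause (edgeR adjusted p = 0.00486) and -1.86 ± 0.61 in founders post CO2 (edgeR adjusted p = 0.0222). With genetic line as a block these calls were lost, at adjusted p of 0.0988 and 0.320. Mated replicate 5 was the only queen of its line, so the block also set its value aside in these comparisons. The adjusted p over all alternatives ran from 0.00120 to 0.0988 and from 0.00616 to 0.320. Without mated replicate 1 the first was -1.47 and still called. The second was lost without mated replicate 1, at -1.11 and an adjusted p of 0.130, and without mated replicate 5, at -1.53 and 0.0524.

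**Figure D2:**
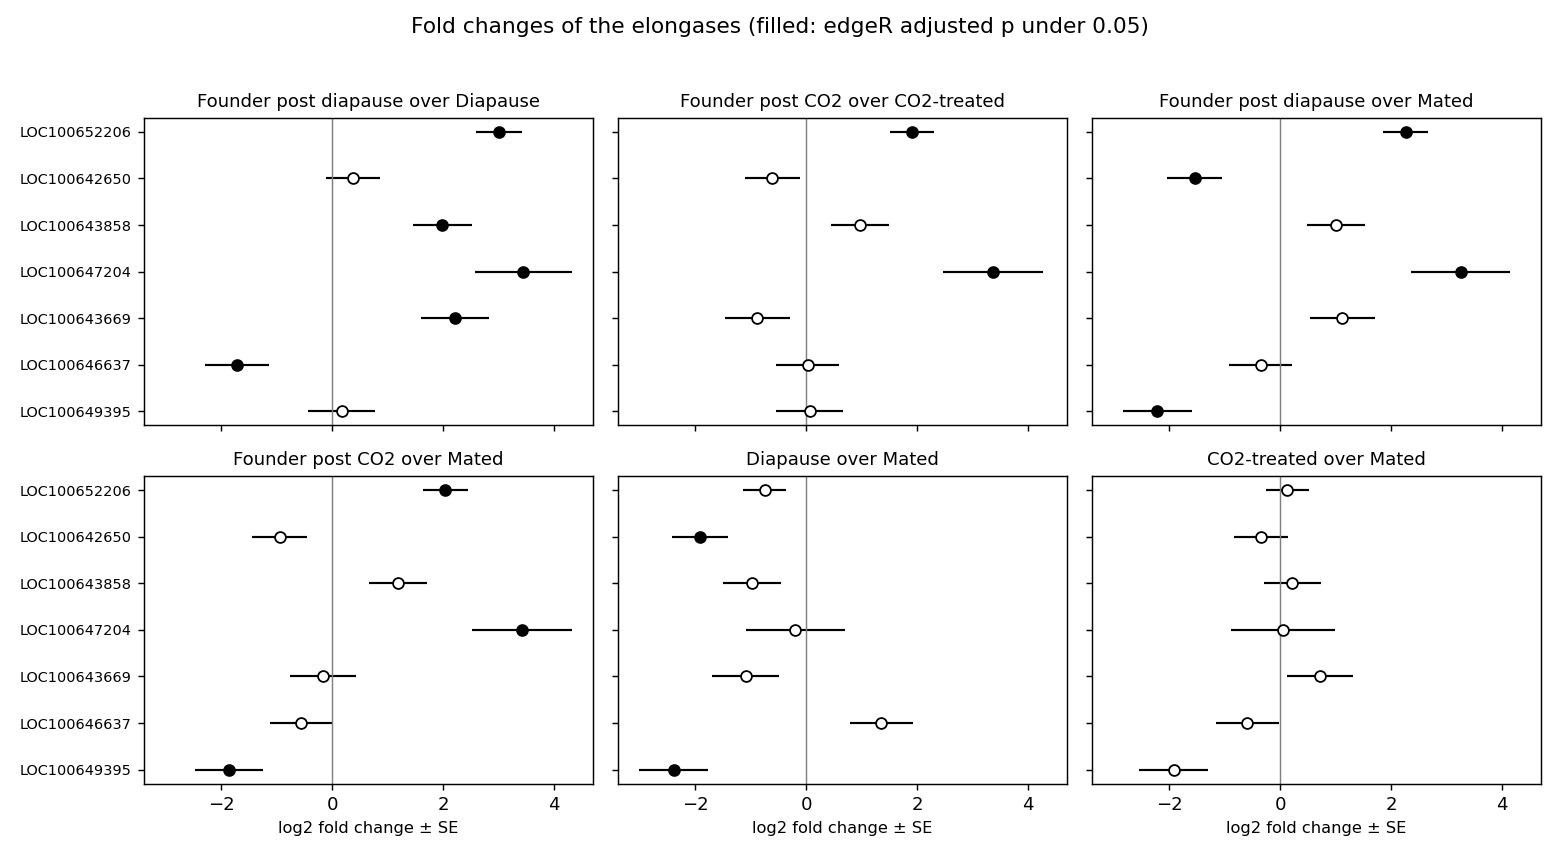
Log2 fold changes of the 7 elongases in 6 comparisons, with bars of 1 SE and filled points for an edgeR adjusted p under 0.05. LOC100652206 is higher in founders in all 4 comparisons of founders, by 1.91 to 3.01.

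Founders post CO2 differed from CO2-treated queens in 2 of the 7 elongases, LOC100652206 and LOC100647204, both higher, where 28.3% of all genes were called, 14.8% higher and 13.6% lower. The medians were 0.06 over the elongases and 0.07 over all genes tested. Against mated queens, founders post CO2 were higher in LOC100652206 and LOC100647204 and lower in LOC100649395, 3 of 7 elongases against 39.2% of all genes, 19.5% higher and 19.6% lower. Founders post diapause against mated queens gave 4 of 7, LOC100652206 and LOC100647204 higher and LOC100642650 and LOC100649395 lower, against 66.4% of all genes, 30.6% higher and 35.8% lower. LOC100643669 had 1.12 ± 0.59 in that comparison, was not called (edgeR adjusted p = 0.0948), and without diapause replicate 1 was called at 1.10 (edgeR adjusted p = 0.0158). The comparisons with mated queens share the same 5 mated queens. Between the founders of the 2 routes, 0 of 7 elongases and 0% of all genes were called with edgeR, and 0 of 7 with DESeq2. At an unadjusted p under 0.05 edgeR gave 1 elongase, LOC100643669, at 1.29 ± 0.59 higher in founders post diapause. LOC100652206 differed by 0.22 ± 0.39 between founders post diapause and founders post CO2 and LOC100643858 by -0.18 ± 0.52.

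In diapause against mated queens, 2 of 7 elongases were lower and 0 were higher, where 5.69% of all genes were called, 3.66% higher and 2.03% lower. The median fold change was -0.98 over the elongases and -0.01 over all genes tested. LOC100642650 was 1338 to 3669 CPM in diapausing queens and 3848 to 12920 CPM in mated queens, with no overlap, which held for 3.03% of all genes. Its fold change was -1.92 ± 0.51 (edgeR adjusted p = 0.0253). The call was lost without any 1 of diapause replicates 2, 3, 4 and 5 and mated replicates 2 and 4, with adjusted p from 0.0524 to 0.101, and with genetic line as a block, at 0.0593. Over all alternatives the adjusted p ran from 0.00192 to 0.101. LOC100649395 was -2.39 ± 0.63 (edgeR adjusted p = 0.0243). With the genetic line block, which also sets mated replicate 5 aside, it was -1.47 with an adjusted p of 0.313. That was the highest of the alternatives, which reached down to 0.00312. Without mated replicate 1 it was -1.64 with 0.121, without mated replicate 5 it was -2.07 with 0.0814, and without diapause replicate 2, 4 or 5 its adjusted p was 0.0559, 0.0800 and 0.0577.

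Diapause replicate 1 moved the diapause comparisons of several elongases. Without it and the 2 shallow libraries, 5 of 7 elongases differed between diapausing and mated queens, and 1192 of all genes were then called, against 216 with all libraries. LOC100643669 fell by 2.67 (edgeR adjusted p = 0.000370) and LOC100652206 fell by 1.14 (edgeR adjusted p = 0.0343), while LOC100646637 rose by 1.76 (edgeR adjusted p = 0.0106). With all 25 libraries these were -1.09 ± 0.60, -0.75 ± 0.39 and 1.36 ± 0.57, none called. Without diapause replicate 1 alone they were -2.78, -1.12 and 1.60, all called.

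In diapause against CO2-treated queens 1 of 7 elongases was called, LOC100646637, higher by 1.95 ± 0.58 (edgeR adjusted p = 0.0473), where 6.43% of all genes were called, 5.64% higher and 0.791% lower. That call held in 13 of 34 alternatives, which gave adjusted p from 0.000579 to 0.173. It was lost without any 1 of CO2-treated replicates 1, 2, 4 and 5, diapause replicates 2 to 5, founder post CO2 replicates 2, 4 and 5, founder post diapause replicates 2, 4 and 5 and mated replicates 1, 3 and 4, with fold changes from 1.64 to 1.95. It was lost too with genetic line as a block, at 1.95 (adjusted p = 0.0555), with no TMM factors, at 1.73 (0.147), with no filter on low counts, at 1.87 (0.0716), and in a fit of only those groups, at 1.83 (0.113). Without the 3 libraries 4 elongases were called, and 1383 of all genes, against 244 with all libraries. LOC100646637 was then higher in diapause by 2.65, and LOC100643669, LOC100642650 and LOC100652206 had -3.65, -1.49 and -1.34 (edgeR adjusted p from 2.66e-05 to 0.0185). Without diapause replicate 1 alone these 3 genes had -3.52, -2.03 and -1.27, all called. With all 25 libraries they had -1.82 ± 0.61, -1.58 ± 0.50 and -0.88 ± 0.39, none called. LOC100642650, at an adjusted p of 0.0573 in edgeR, was also called without founder post CO2 replicate 1 or 3, founder post diapause replicate 1 or mated replicate 2, at -1.58, -1.51, -1.51 and -1.58.

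In diapause replicate 1 LOC100643669 was at 39.3 CPM, within the 25.4 to 51.9 CPM of CO2-treated queens, and LOC100646637 was at 185 CPM, below all CO2-treated queens. Sums of genes chosen by product name as markers differed in this queen from those of the other diapausing queens, in both directions. Which cells express these genes was not tested. The summed level of 22 gut genes was 8250 CPM against 2517 to 3988 CPM in the other diapausing queens, and that of 21 oenocyte and epidermis genes was 8970 CPM against 2911 to 4546 CPM. That of neuron genes was 334 CPM against 452.9 to 571 CPM, and that of germ line and ovary genes was 293 CPM against 395 to 1061 CPM. The fat body sum, at 4304 CPM, lay within the 4119 to 10730 CPM of the others. Their part in the elongase values was not tested.

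**Figure D3:**
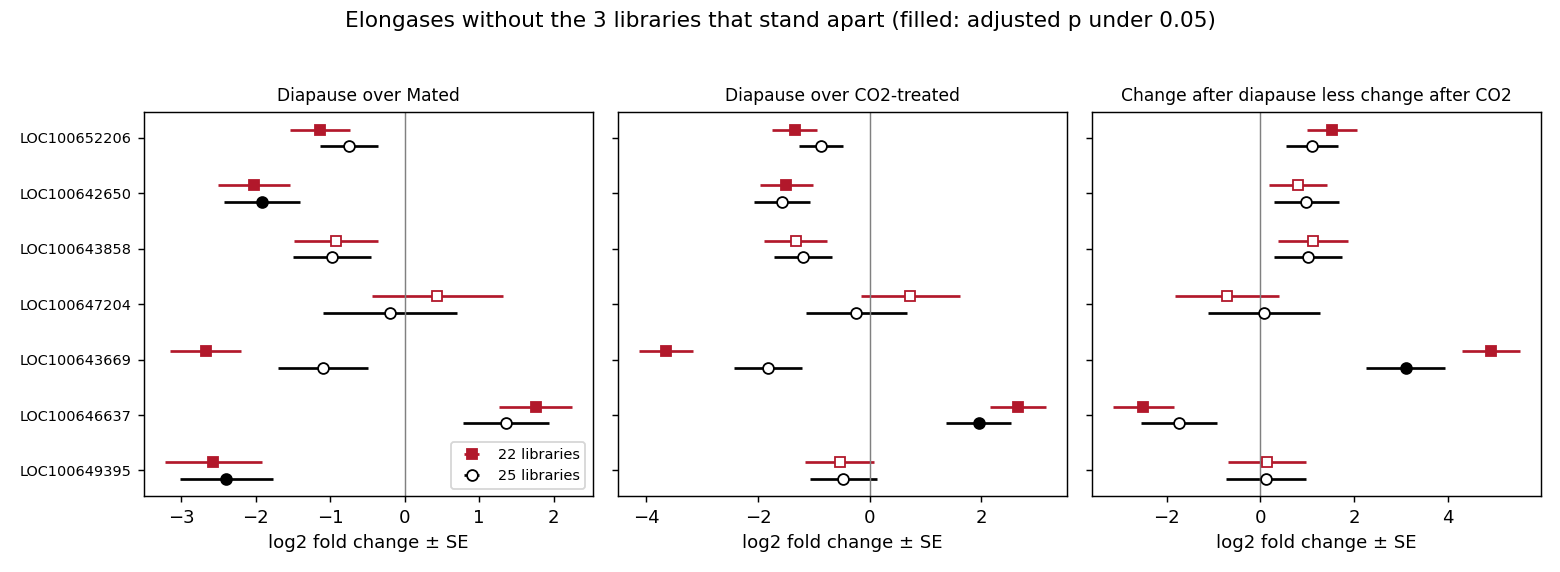
Log2 fold changes of the 7 elongases for diapause over mated, diapause over CO2-treated and the difference between the 2 changes to founder. Red squares are fits of 22 libraries, without CO2-treated replicate 3, mated replicate 2 and diapause replicate 1, circles are fits of all 25, bars are 1 SE, and filled symbols have an adjusted p under 0.05. LOC100643669 moves furthest in each panel, to -2.67 against mated queens with 22 libraries, against -1.09 with 25.

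CO2 treatment alone changed no elongase past the threshold. In CO2-treated against mated queens 0 of 7 were called with edgeR, where 0.395% of all genes were called, and 0 of 7 with DESeq2. The 2 shallow libraries, which were close to each other, stand on opposite sides of this comparison. Without them 39 of all genes were called, against 15 with all libraries. No elongase was called here in any of the 34 alternatives. At an unadjusted p under 0.05 edgeR gave 1, LOC100649395, with -1.92 ± 0.62 and an adjusted p of 0.320, and the mated replicates 1 and 5 that were high in this gene are in that value. The other 6 fold changes lay between -0.59 ± 0.57 for LOC100646637 and 0.72 ± 0.59 for LOC100643669. For LOC100652206 the fold change was 0.13 ± 0.39.

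The change to founder after diapause less the change after CO2 was tested as a difference of its own. LOC100643669 was called, at 3.10 ± 0.85 (edgeR adjusted p = 0.0495), 1 of 7 elongases where 2.43% of all genes were called, 0.0791% higher and 2.35% lower. It rose by 2.22 after diapause and had -0.88 after CO2. The call sat at the threshold and held in 10 of 34 alternatives, with adjusted p from 3.85e-05 to 0.128 and fold changes from 2.76 to 4.93. It was lost without any 1 of CO2-treated replicates 1, 2, 4 and 5, diapause replicates 2 to 5, founder post CO2 replicates 2, 4 and 5, founder post diapause replicates 1, 3, 4 and 5 and each mated queen, with fold changes from 2.76 to 3.23. With genetic line as a block its adjusted p was 0.0739. Without diapause replicate 1 alone it was 4.77 (edgeR adjusted p = 3.85e-05). Without the 3 libraries it was 4.93 (edgeR adjusted p = 4.61e-05), and LOC100646637 and LOC100652206 were called as well, at -2.50 and 1.53 (edgeR adjusted p = 0.00712 and 0.0307), where 1388 of all genes were called, against 92 with all libraries. For LOC100652206 all 25 libraries gave 1.10 ± 0.55 (edgeR adjusted p = 0.194), and without diapause replicate 1 or founder post CO2 replicate 3 it was called, at 1.45 and 1.55. LOC100646637 had -1.74 ± 0.80 with all libraries (edgeR adjusted p = 0.166) and was called without diapause replicate 1, at -2.02. LOC100647204 had 0.08 ± 1.19 (edgeR adjusted p = 0.968).

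Ordered by group means, neighbouring groups overlapped in range for 6 of the 7 genes at every step. The exception was LOC100652206, whose founders post CO2 did not overlap with the CO2-treated queens that came next. Its level was 3591 ± 1191 CPM in founders post diapause, 3080 ± 2076 in founders post CO2, 818 ± 229 in CO2-treated queens, 747 ± 138 in mated queens and 445.0 ± 206.8 in diapause (SD, n = 5 each), in that order from the top. Founders were at the top for LOC100643858 and LOC100647204 too. Diapause was at the bottom for every elongase but LOC100646637, where it was at the top with 2486 ± 1444 CPM, and mated queens, the next group, had 969.6 ± 536 CPM (SD, n = 5 each). For LOC100647204 that place rests on the libraries that stood apart, and without them diapause had 5.35 ± 1.91 CPM, CO2-treated queens 3.03 ± 0.59 CPM and mated queens 3.78 ± 0.46 CPM (SD, n = 4 each). For LOC100642650 mated queens were at the top with 7249 ± 3613 CPM, and diapause, with 1918 ± 985 CPM, at the bottom (SD, n = 5 each).

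The counts of a gene were also compared interval by interval. Between founders post diapause and diapause, the log2 ratio of mean CPM ran from 2.95 to 3.06 over the 4 intervals of LOC100652206, from 1.87 to 2.15 over the 7 of LOC100643858 and from -1.74 to -1.54 over the 3 of LOC100646637. LOC100642650 has 2 intervals, and the second, of 17303 bases, held 92.0% of its counts. The log2 ratio of founders post diapause to diapause was 0.88 in the first and 0.34 in the second, and that of diapause to mated queens was -2.55 and -1.87. The first, of 630 bases, took 3.36% to 7.06% of the gene's counts in diapausing queens and 7.17% to 8.89% in mated queens. Founders post diapause, at 3.565% to 8.669%, overlapped with both. How often other intervals part diapausing from mated queens was not counted. An interval of 17303 bases is long for an exon, and reads of other transcripts within it could not be told apart from those of the elongase.

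The table names 4 more elongases, and all 4 passed the filter on low counts. LOC100648002, LOC100649601 and LOC100649787, all protein 6-like, and LOC100648720, mosquito-like, were higher in founders post diapause than in diapause by 4.31 ± 0.69, 2.93 ± 0.82, 2.85 ± 0.87 and 1.46 ± 0.47, with edgeR adjusted p from 2.83e-05 to 0.00725. Of all genes, 40.2% were called higher and 40.6% lower there. With all 25 libraries LOC100648002 alone was called in founders post CO2 against CO2-treated queens, at 2.64 ± 0.64 (edgeR adjusted p = 0.0058), a call lost in a fit of only those groups, at 0.0558. With all 25 libraries 28.3% of all genes were called in that comparison, 14.8% higher and 13.6% lower. In the edgeR fit of all 25 libraries none of the 4 was called in diapause or CO2-treated queens against mated queens, where 5.69% and 0.395% of all genes were. Several of these values rested on diapause replicate 1. LOC100649601 had 1743 CPM in that queen and 41.3 to 97.3 CPM in the other 4 diapausing queens, and LOC100649787 had 322 CPM against 4.17 to 13.2 CPM. Without it LOC100649601, LOC100649787 and LOC100648720 were lower in diapause than in mated queens, at -3.05 ± 0.55, -3.52 ± 0.61 and -1.46 ± 0.44 (edgeR adjusted p = 0.000559, 0.000359 and 0.0190), and 916 of all genes were called, against 216 with all libraries. Founders post diapause were then higher than diapause by 5.50 ± 0.63, 5.79 ± 0.68 and 2.13 ± 0.45 in these 3 genes. LOC100648002 had 4.29 ± 0.76 without it. In founders post CO2 against CO2-treated queens LOC100649601 and LOC100649787 were then called as well, at 1.50 ± 0.48 and 1.36 ± 0.50 (edgeR adjusted p = 0.0258 and 0.0452). The share of all genes called in that comparison without diapause replicate 1 is not given here. The change after diapause less the change after CO2 was then called in LOC100649601, at 4.00 ± 0.72, and in LOC100649787, at 4.42 ± 0.77 (edgeR adjusted p = 0.00101 and 0.000915), where 1005 of all genes were called, against 92 with all libraries. With all libraries those differences were 1.45 ± 1.09 and 1.51 ± 1.15, neither called. LOC100648002 had 8506 ± 3886 CPM in founders post diapause and 428 ± 179 CPM in diapause (SD, n = 5 each).

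The other enzymes of the elongation cycle were counted from a list of 5 genes. In founders post diapause against diapause 4 rose and 1 fell, where 40.2% of all genes tested were called higher and 40.6% lower. The rising genes were LOC100642272, like estradiol 17-beta-dehydrogenase 12, which in mammals is the ketoacyl reductase of the cycle, by 3.17 ± 0.61, the enoyl-CoA reductase LOC100644169 by 3.19 ± 0.59, and the dehydratases LOC100645881 by 3.42 ± 0.60 and LOC100642777 by 1.39 ± 0.38, with edgeR adjusted p from 5.74e-05 to 0.00248. LOC100648634, a second gene named like dehydrogenase 12, fell by 2.06 (SE 0.49, edgeR adjusted p = 0.000784). In founders post diapause against mated queens 30.6% of all genes were called higher. These 4 rising genes were among them, by 1.04 to 2.15. The smallest of these, LOC100642777, was not called without founder post diapause replicate 1, mated replicate 2 or mated replicate 4, at 0.85, 0.93 and 0.83. In diapause against mated queens 3.66% of all genes were called higher and 2.03% lower. There LOC100648634 was higher by 2.06 and 0 of 5 were lower. That call was lost with genetic line as a block, at 1.70, and without any 1 of diapause replicates 2 and 4 and mated replicates 1, 3 and 5, with fold changes from 1.83 to 2.02. Without the 3 libraries 1 of the 5 genes was higher and 3 were lower, where 1192 of all genes were called, against 216 with all libraries. In founders post CO2 against CO2-treated queens 0 of 5 were called with edgeR, where 28.3% of all genes were, and 1 with DESeq2, whose share of all genes is not given here. The 5 fold changes lay between 0.65 ± 0.38 and 1.26 ± 0.55. The summed level of the 5 genes was 11060 to 34490 CPM in founders post diapause, 923 to 6580 CPM in diapause, 5608 to 26030 CPM in founders post CO2, 4507 to 8685 CPM in CO2-treated queens and 4108 to 6585 CPM in mated queens.

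**Figure D4:**
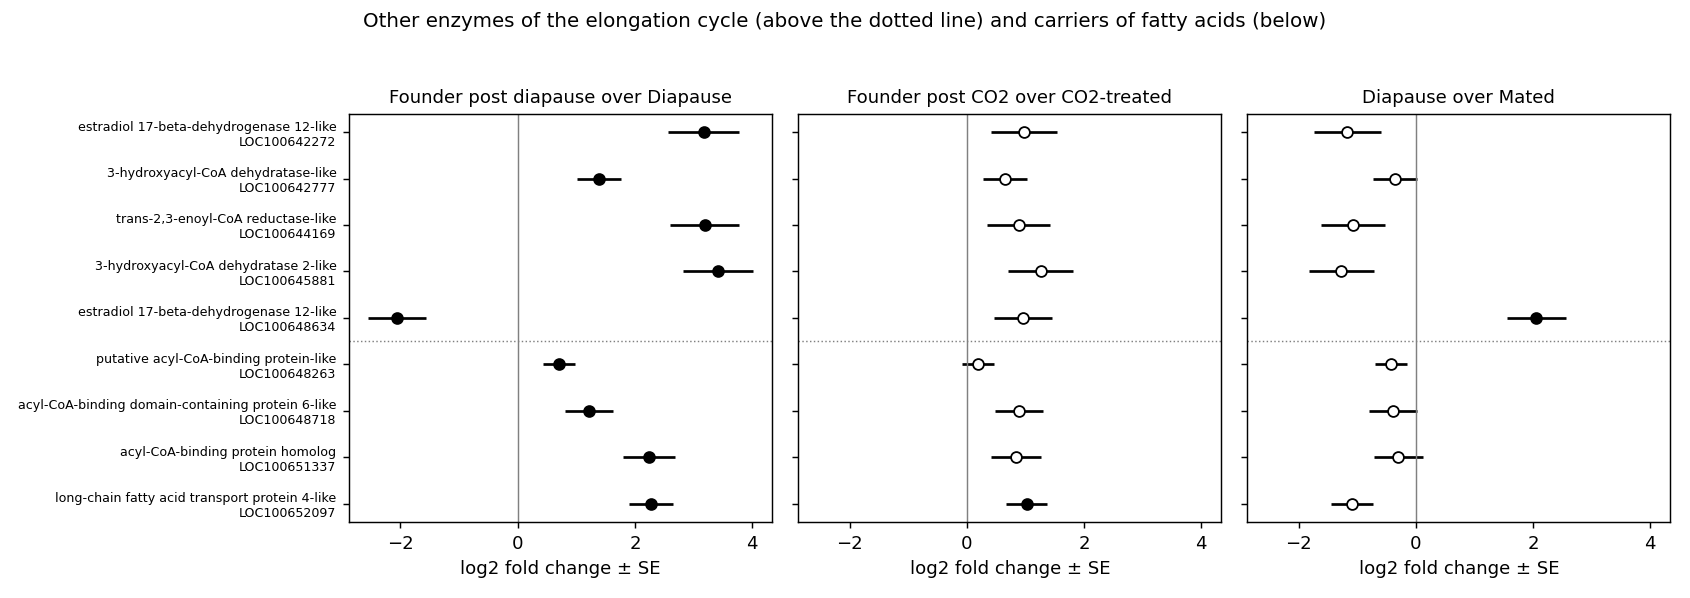
Log2 fold changes of the 5 other enzymes of the elongation cycle, above the dotted line, and of 4 carriers of fatty acids, below it, in 3 comparisons. Bars are 1 SE, and filled points have an edgeR adjusted p under 0.05. In founders post diapause against diapause all 9 genes are called, where 80.9% of all genes tested were, with LOC100648634 alone lower, at -2.06.

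In founders post diapause against diapause 40.2% of all genes were called higher and 40.6% lower. Of 4 genes that activate or carry fatty acids, all 4 were higher there, by 0.71 to 2.28. The smallest of these calls, LOC100648263, a putative acyl-CoA-binding protein, was lost without any 1 of diapause replicates 2 to 5 and founder replicates 1 and 3, with fold changes from 0.57 to 0.66, and without TMM factors, at 0.44. Long-chain fatty acid transport protein 4-like, LOC100652097, was highest among them at 2.28 ± 0.37 (edgeR adjusted p = 3.25e-05), and acyl-CoA-binding protein homolog, LOC100651337, had 2.24 ± 0.44 (edgeR adjusted p = 0.000172). Of 4 genes of fatty acid synthesis and malonyl-CoA, 3 rose and 1 fell in that comparison. ATP-citrate synthase, which supplies acetyl-CoA, rose by 1.75 ± 0.49 (edgeR adjusted p = 0.00279) and acetyl-CoA carboxylase, which makes the malonyl-CoA that elongases use, fell by 1.88 (SE 0.66, edgeR adjusted p = 0.0121). The other genes that rose were malonyl-CoA decarboxylase, which breaks malonyl-CoA down, and a mitochondrial transacylase, by 0.98 and 0.95, and neither was called without TMM factors, at 0.69 and 0.70. The decarboxylase was not called without founder post diapause replicate 1 either, at 0.69. Of 2 desaturases, sphingolipid desaturase DES1-like was 1.00 ± 0.31 higher, not called without founder post diapause replicate 1, at 0.66, and the delta-11 desaturase-like LOC100649922 fell by 2.53 (SE 0.37, edgeR adjusted p = 1.21e-05).

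Of 16 fatty acyl-CoA reductases, which turn long chains into alcohols and aldehydes, 14 were tested. Founders post diapause against diapause gave 6 higher and 4 lower, where 40.2% of all genes were called higher and 40.6% lower. Diapause against mated queens gave 0 higher and 7 lower, where 3.66% of all genes were called higher and 2.03% lower. The 7 fold changes in diapause ran from -6.07 to -2.20. Sterol regulatory element-binding protein 1-like, a transcription factor of lipid synthesis, differed by 0.07 ± 0.36 between founders post diapause and diapause, and the cleavage-activating protein of that factor, LOC100650711, fell by 1.95 in those founders (SE 0.53, edgeR adjusted p = 0.00223).

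The genes most like each elongase across the 25 queens were found by the root mean square difference of log2 CPM, each gene centred on its own mean. The nearest to LOC100652206 was peroxisomal membrane protein PMP34-like at 0.48, against 1.27 for the elongase's own spread around its mean. The nearest to LOC100643858 was long-chain fatty acid transport protein 4-like, LOC100652097, at 0.54 against 1.03. The nearest to LOC100643669 was fatty acyl-CoA reductase CG8306-like at 0.66 against 1.26. For LOC100642650 it was vascular endothelial growth factor receptor 1-like at 0.50 against 0.96. For LOC100647204 it was histone-lysine N-methyltransferase SETMAR-like, at 0.91 against 1.76, followed by protein claret segregational-like at 0.92. For LOC100646637 the 3 nearest genes, from 0.69, were hypothetical ones, and for LOC100649395 the nearest, at 0.81 against 1.05, was hypothetical as well. Among the elongases themselves the closest pair were the neighbours LOC100643858 and LOC100652206, at 0.77, and the farthest LOC100643669 and LOC100646637, at 2.21.

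Lists of genes chosen by product name stood for other cell types beside these results, and which cells express them was not tested. The gut list includes a chymotrypsin inhibitor-like gene, and the neuron list includes syntaxin-17-like and syntaxin-18-like genes. Of all genes, 40.2% were called higher and 40.6% lower in founders post diapause against diapause. Of 22 gut genes, 13 rose and 1 fell there. Their summed level was 4940 to 45550 CPM in those founders and 2517 to 8250 CPM in diapausing queens. In founders post CO2 the gut sum was 5297 to 13020 CPM, against 4012 to 20850 CPM in CO2-treated queens and 3650 to 5417 CPM in mated queens. Of 21 oenocyte and epidermis genes, which include the 14 fatty acyl-CoA reductases, 8 rose and 8 fell after diapause. Their sum was 12200 to 24680 CPM in founders post diapause, 2911 to 8970 CPM in diapause, 6750 to 24280 CPM in founders post CO2, 5996 to 10140 CPM in CO2-treated queens and 7334 to 11000 CPM in mated queens. Of 4 germ line genes 2 rose and 2 fell after diapause, with sums of 105.7 to 1134 CPM in founders post diapause, 293 to 1061 CPM in diapause, 451 to 2497 CPM in founders post CO2, 188.5 to 464 CPM in CO2-treated queens and 246 to 521 CPM in mated queens. The part of these cell types in the elongase differences was not tested.

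Fat body, the labelled tissue, was represented by 6 genes chosen by product name. These were vitellogenin-6-like, vitellogenin receptor-like, a pair of hexamerin-like and a pair of apolipoprotein D-like genes. Which cells express them was not tested. In founders post diapause against diapause 2 rose and 3 fell, where 40.2% of all genes were called higher and 40.6% lower. The sum of the 6 was 1063 to 2141 CPM in founders post diapause and 4119 to 10730 CPM in diapause. It was 1858 to 4099 CPM in founders post CO2, 756 to 19510 CPM in CO2-treated queens and 741 to 46740 CPM in mated queens. The lowest values of the last pair of groups came from the 2 shallow libraries, without which CO2-treated queens had 3815 to 19510 CPM and mated queens 20740 to 46740 CPM. In founders post diapause against diapause, 1 of 5 muscle genes was higher and 2 were lower, with sums of 3771 to 9767 CPM in founders and 5955 to 21590 CPM in diapause. Of 6 neuron genes 2 were higher and 3 lower, and of 3 hemocyte genes 1 was lower. No gene of these lists was at 0 in every queen of a group.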

How the data were processed

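Per the labels, polyA RNA of 25 single queens was sequenced, each from 1 abdomen with its fat body, 5 queens in each of 5 groups. The submitters' processing notes name TopHat, Trimmomatic and DESeq without versions. In the deposited table are raw read counts, whole numbers per interval of the genome. Not given in the sources used here: the counting tool, the strand setting and how intervals were chosen. The name of the deposited gene models holds a version, 1.3, which no label ties to a genome build or to the count table. Starts were read as counted from 0, since 7598 of 13355 interval lengths then match a coding exon of the deposited gene models, against 368 from 1. Those models were used for this check and for the share of 36.4% of their accessions that the table covers. A total is therefore not a sequencing depth.

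Counts of 22679 intervals were summed over 3861 genes. A single edgeR 4.0.16 quasi-likelihood fit (R 4.3.3, limma 3.58.1) of all 25 libraries had TMM factors, a term per group and 20 residual degrees of freedom, after a filter at a minimum count of 10 and total of 15 that kept 3793 genes and removed 68. The common coefficient of variation between queens was 51.4%. Contrasts were two-sided, and calls needed a Benjamini-Hochberg adjusted p under 0.05. SE is the fold change over the root of F. The likeness of genes used log2 CPM with a prior count of 2. The fit was tested on simulated counts. Tables were handled in Python 3.11.15 with pandas 2.3.3, numpy 2.4.6 and matplotlib 3.10.9.

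There were 34 alternatives: DESeq2 1.42.0, other scalings, no filter, a block for genetic line, only intervals on a gene's main scaffold, only the groups compared, without 2 shallow libraries, without these and diapause replicate 1, and without each library in turn. The same alternatives for the pathway genes, the other elongases and the marker lists were chosen after seeing the data. Pairing comes from the genetic line in the labels and is incomplete. Mated replicate 5 is the only queen of line 426, and line 51 has no mated queen. Over 46 pairs of the same line in different groups, deviations from group means correlated at a median of 0.065, against -0.016 over 204 pairs of other lines, and line was therefore kept as an alternative.

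The elongases, pathway and marker lists were chosen with earlier results of these data known. The named genes are the elongases, list genes that were called in some comparison, and the genes nearest in pattern. Product names are those of the table, and 3534 of its genes matched the reference symbols. No promoter, protein or other sequence was analysed here.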

Additional observations from a re-analysis of the deposited data

Results flagged for a closer look

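In 6 of 35 groups of 5 queens a single queen lay far from the other 4, by a gap that took up most of the group's range. For independent, normally spread values the limit used marks about 1 group in 20. CPM need not be normally spread, and the 35 groups come from the same 25 libraries, so the rate to set beside 6 was not tested. LOC100642650 was at 3669 CPM in diapause replicate 1 and at 13070 CPM in CO2-treated replicate 3, each the highest of its group. LOC100643669 was at 39.33 CPM in diapause replicate 1. LOC100647204 was at 21.86 CPM in CO2-treated replicate 3 and at 14.72 CPM in mated replicate 2. LOC100652206 was at 990.2 CPM in mated replicate 4. Of these 6 values, 5 come from the 3 libraries that stood apart over all genes. Without them LOC100642650 averaged 1481 ± 121 CPM in diapause and 3895 ± 1261 CPM in CO2-treated queens, and LOC100647204 3.03 ± 0.59 CPM in CO2-treated queens and 3.78 ± 0.46 CPM in mated queens (SD, n = 4 each).

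The change to founder after diapause less that after CO2 was 3.103 on the log2 scale for LOC100643669. This difference passed its own test with all 25 libraries (edgeR adjusted p = 0.0495). The call held in 10 of 34 alternatives and was lost with genetic line as a block (edgeR adjusted p = 0.0739).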

How the results depend on the processing

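The 7 elongases had 18 calls, of which 10 held in all 34 alternatives and 8 were lost in at least 1; none of the 18 reversed. The 10 were the 5 of founders post diapause against diapause, the other 3 of LOC100652206, and LOC100642650 and LOC100647204 in founders post diapause against mated queens. The genetic line block, the incomplete pairing in the labels, kept 10 calls. It left 0 elongases called in diapause against mated queens (2 without it), 0 in diapause against CO2-treated queens (1 without it), 1 in founders post CO2 against CO2-treated queens (2 without it), 1 in founders post CO2 against mated queens (3 without it) and 0 in the difference between routes (1 without it), and changed no other count by over 1.5 times. Totals without TMM factors gave 1 for diapause against mated queens, 0 for diapause against CO2-treated queens and 0 for the routes, and no filter gave 0 for the last 2. Fits of only the groups compared gave 0, 0 and 0 for these 3 and 1 for founders post CO2 against CO2-treated queens. DESeq2 gave 3 for diapause against CO2-treated queens. Without the 2 shallow libraries and diapause replicate 1 the counts were 5, 4 and 3. Leaving out 1 queen gave 0 to 5, 0 to 4 and 0 to 3 for the same 3 comparisons and 1 to 2 for founders post CO2 against CO2-treated queens. Without TMM factors the median of all genes shifted by up to -0.21 (founders post diapause against diapause) and 0.17 (CO2-treated against mated queens); 15 of the 18 calls were kept. LOC100643669, LOC100647204 and LOC100649395 had as few as 7, 6 and 12 counts in a library, which limits their fold changes. Counts over all genes moved too. Diapause against mated queens had 216 called genes, 457 with DESeq2, 111 without TMM factors, 102 with only those groups, 51 with the line block and 91 to 916 with 1 queen left out. Diapause against CO2-treated queens had 244, and under these 5 settings 509, 50, 24, 130 and 64 to 1091, with 143 without the filter. The route difference had 92, and under the 5 settings 484, 21, 11, 3 and 9 to 1005, with 55 without the filter and 246 without the 2 shallow libraries. CO2-treated against mated queens had 15, with 42 in DESeq2, 0 without TMM factors, with only those groups or with the line block, 39 without the 2 shallow libraries and 59 without all 3. Founders post CO2 against CO2-treated queens had 1075, with 578 without TMM factors, 378 with only those groups, 600 without the 2 shallow libraries, 670 without all 3 and as few as 491 without 1 queen. Founders post CO2 against mated queens had 1485, with 685 in only those groups and as few as 767 without 1 queen. Between the 2 kinds of founders there were 0, with 5 in DESeq2 and up to 4 without 1 queen. The cause of these changes was not tested.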
